A study of Mus musculus with 6 samples.

Results

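The genes described here are 10 enzymes that make or consume kynurenine, a breakdown product of tryptophan. They are Kyat1 (ENSMUSG00000039648), Kyat3 (ENSMUSG00000040213), Aadat (ENSMUSG00000057228), Got2 (ENSMUSG00000031672), Afmid (ENSMUSG00000017718), Kmo (ENSMUSG00000039783), Kynu (ENSMUSG00000026866), Haao (ENSMUSG00000000673), Ido1 (ENSMUSG00000031551) and Tdo2 (ENSMUSG00000028011), and all 10 were among the 49315 genes of the count table. They were picked by name as enzymes of the route, with earlier results of these data known. Their mRNA levels were measured by RNA sequencing of gastrocnemius muscle from male C57BL6J mice. Every mouse had received an adeno-associated virus of serotype AAV9 by intramuscular injection at 5 months of age, and the muscle was taken 5 months later. In 3 mice the virus was AAV9-HSA-CAAHR (replicates 31, 34 and 36), which carries a mouse aryl hydrocarbon receptor (AHR) that lacks its ligand binding domain and needs no ligand to be active. In 3 control mice it was AAV9-HSA-GFP (replicates 42, 43 and 46), which carries green fluorescent protein. HSA is the human skeletal actin promoter, which drives transcription in muscle fibres, so other cells of the muscle were not meant to express either transgene. All 6 muscles therefore had a virus and a transgene, and no uninjected muscle was analysed here. The CAAHR transgene was made from a mouse sequence, so the groups were not matched for a foreign protein.

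Kynurenine is formed from tryptophan when IDO1 or TDO2 opens the indole ring and the arylformamidase AFMID removes the formyl group. From there the route divides: kynurenine aminotransferases (KYAT1, KYAT3, AADAT and the mitochondrial aspartate aminotransferase GOT2) turn kynurenine into kynurenic acid, while KMO, KYNU and HAAO lead towards quinolinic acid and NAD. Both kynurenine and kynurenic acid are known ligands of the AHR, and skeletal muscle is known to convert kynurenine to kynurenic acid through its aminotransferases. The comparison of the 2 groups asks whether the transcripts of these enzymes differ when muscle fibres hold a constantly active AHR.

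The AHR binds DNA with its partner ARNT at sites whose core is GCGTG. Promoter windows of 300 bases, from 250 before to 50 after a start site, were taken from RefSeq (GRCm38.p6) and were found for 8 of the 10 genes, the others being Kynu and Ido1. The windows of Kyat1, Kyat3 and Got2, the 3 most abundant transcripts of the group, are printed below 5′ to 3′ with that of Tph1, the pathway gene that differed most between groups. Capitals mark the core, as GCGTG or as its reverse complement CACGC.
Kyat1, chr2:30205798-30206097, minus strand: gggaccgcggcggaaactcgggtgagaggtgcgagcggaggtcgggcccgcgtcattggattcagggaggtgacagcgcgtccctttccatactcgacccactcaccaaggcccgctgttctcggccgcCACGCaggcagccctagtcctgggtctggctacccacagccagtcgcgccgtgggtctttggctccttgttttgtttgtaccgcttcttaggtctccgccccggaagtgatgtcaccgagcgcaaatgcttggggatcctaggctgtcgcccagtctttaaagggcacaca
Kyat3, chr3:142700798-142701097, plus strand: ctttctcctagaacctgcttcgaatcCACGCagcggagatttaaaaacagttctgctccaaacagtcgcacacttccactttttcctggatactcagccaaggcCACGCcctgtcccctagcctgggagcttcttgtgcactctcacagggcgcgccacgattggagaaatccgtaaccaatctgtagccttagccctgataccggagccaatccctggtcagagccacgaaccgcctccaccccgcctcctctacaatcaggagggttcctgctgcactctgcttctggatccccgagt
Got2, chr8:95888352-95888651, minus strand: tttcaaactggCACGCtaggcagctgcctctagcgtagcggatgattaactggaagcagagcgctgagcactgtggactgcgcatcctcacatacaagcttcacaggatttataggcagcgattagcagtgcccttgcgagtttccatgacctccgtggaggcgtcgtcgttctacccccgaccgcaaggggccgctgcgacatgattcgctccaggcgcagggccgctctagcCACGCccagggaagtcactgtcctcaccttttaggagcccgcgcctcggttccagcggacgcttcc
Tph1, chr7:46672488-46672787, minus strand: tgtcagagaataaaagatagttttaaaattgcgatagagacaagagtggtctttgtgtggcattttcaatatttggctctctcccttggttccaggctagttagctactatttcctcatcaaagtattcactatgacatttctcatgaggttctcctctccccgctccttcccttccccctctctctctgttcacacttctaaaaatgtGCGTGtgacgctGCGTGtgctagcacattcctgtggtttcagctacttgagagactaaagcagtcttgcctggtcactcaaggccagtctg
The core was present once in the Kyat1 window, 121 bases before the start. It was present in 2 copies in the Kyat3 window, 224 and 146 bases before the start, and in 2 copies in the Got2 window, at 239 and 16 bases. The Tdo2 and Haao windows held 1 copy each, and the Aadat, Afmid and Kmo windows held 0. Of 27025 mouse promoter windows of the same length, 1 per gene, 32.5% held the core on either strand. Tph1 has 2 windows in the table, and the one shown held 2 copies, 41 and 29 bases before its start, while the other held 0. A longer form, TNGCGTG, overlaps the core and was found in 5.12% of all windows, and of these genes only Got2 held it, in 1 copy. These are matches of letters and not measured binding.

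The libraries held between 43432994 and 58825752 assigned reads. Levels are given as CPM, read counts scaled to a common library size with edgeR's TMM factors, so that 1 read was worth 0.0164 to 0.024 CPM. The label of the virus was reflected in the transcripts: Ahr, whose count includes reads from the transgene, was 7.30-fold higher (log2 fold change 2.87 ± 0.31 SE, adjusted p = 0.00229), and Cyp1a1, the textbook AHR target, was 218-fold higher (log2 fold change 7.77 ± 0.20 SE, adjusted p = 1.11e-07). All 6 genes of an AHR-induced list rose, and their summed level was 1680 to 2310 CPM in AAV9-HSA-CAAHR muscles against 57.1 to 66.6 CPM in AAV9-HSA-GFP muscles. Genes of fast fibres, which make up most of this muscle, summed to 135000 to 193000 CPM over all libraries, and of 8 such genes 2 fell, with 3 at an unadjusted p under 0.05 in edgeR. Of the 8 fitted values 6 were below 0 and 2, those of Myh1 and Myh2, above 0, with a median log2 fold change of -0.28. Slow fibre genes separated the groups: 1 of 9 passed the adjusted threshold, but 8 had an unadjusted p under 0.05, and all 9 fitted values were above 0 with a median log2 fold change of 2.56. Adipocyte genes also separated them, at 2.31 to 15.2 against 16.3 to 67.2 CPM in sum. Of these 1 of 4 fell, the same number had an unadjusted p under 0.05, and all 4 fitted values were below 0 with a median of -2.04. Of 4 fibroblast and 4 endothelial genes 0 passed, with 1 and 0 at an unadjusted p under 0.05. Over all tested genes 7.6% passed the adjusted threshold and 23.9% had an unadjusted p under 0.05 in edgeR. The slow fibre sum was 2780, 649 and 2520 CPM in replicates 31, 34 and 36 and 228, 333 and 461 CPM in replicates 42, 43 and 46, so that replicate 34 stood apart in its group but above every control. The part of fibre type and adipocyte content in the levels of the kynurenine enzymes was not tested.

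None of the 10 kynurenine enzymes was called higher or lower in AAV9-HSA-CAAHR muscles. A test was possible for 5 of them, Got2, Kyat1, Kyat3, Afmid and Ido1. With edgeR's quasi-likelihood test 0 of 5 passed an adjusted p of 0.05, 0 also exceeded 2-fold, and 0 had an unadjusted p under 0.05. Over all 15847 tested genes these shares were 7.6%, 3.48% and 23.9%. DESeq2 and limma-voom also called 0 of 5, but DESeq2 gave no adjusted p for Ido1 (unadjusted p = 0.35 in DESeq2). The other 5 genes, Tdo2, Kmo, Kynu, Haao and Aadat, had too few reads to enter the test.

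**Figure D1:**
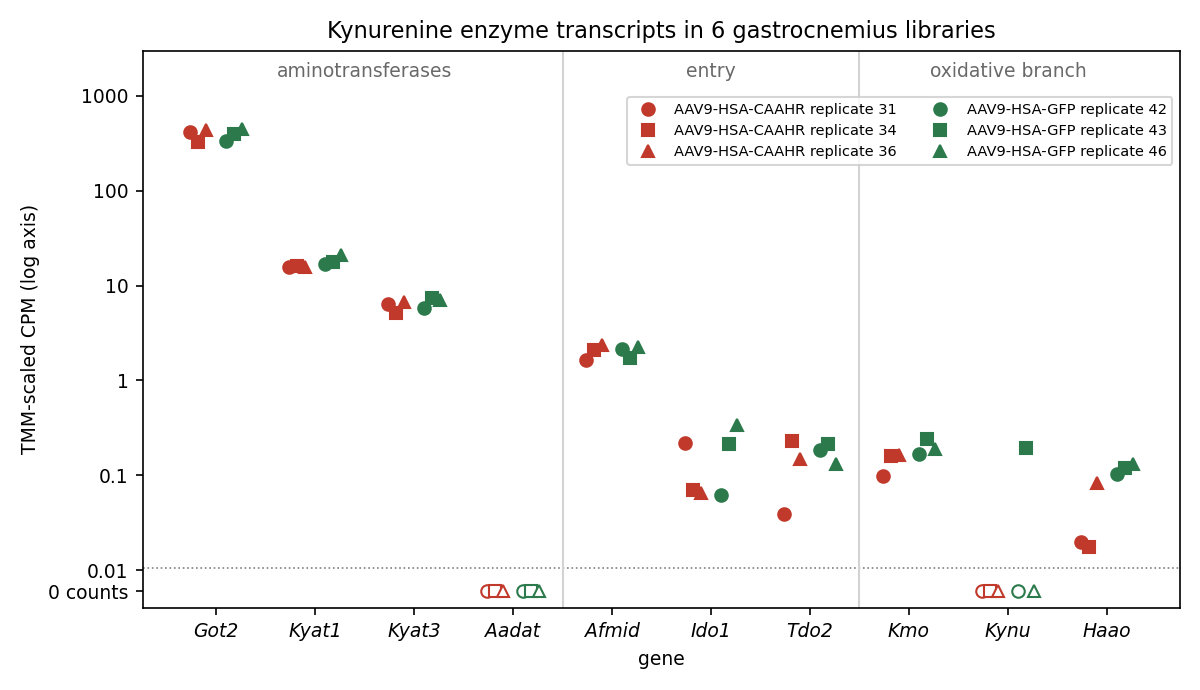
Level of each kynurenine enzyme transcript in every library, in TMM-scaled CPM on a log axis, by role of the enzyme; red marks are AAV9-HSA-CAAHR and green marks AAV9-HSA-GFP muscles, and open marks below the dotted line are libraries with 0 counts. Got2 lies between 331 and 451 CPM in both groups, whereas the transcripts of the oxidative branch stay at or below 0.24 CPM.

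Got2, whose enzyme also works in the malate-aspartate shuttle, was by far the most abundant of the 10. Its level was 417, 331 and 439 CPM in the AAV9-HSA-CAAHR muscles (replicates 31, 34 and 36) and 338, 398 and 451 CPM in the AAV9-HSA-GFP muscles (replicates 42, 43 and 46). The ranges overlapped, and replicate 34 was the lowest of all 6. The means were 395.6 ± 57.3 and 395.8 ± 56.7 CPM (SD, n = 3 each), a fold of 0.9996 with a 95% interval from 0.797 to 1.25 (adjusted p = 0.999). The gene lies on chromosome 8 (GRCm38, 95864134 to 95888547, minus strand). A pseudogene, Got2-ps1, took 127 reads over all libraries against 123523 for Got2, and 434 exon bases of Got2 are shared with Gm45760 on the opposite strand, a gene at no more than 0.0755 CPM.

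Kyat1, the cytosolic enzyme also known as glutamine transaminase K, was the one tested member whose groups did not overlap. It was at 15.9, 16.2 and 15.7 CPM in AAV9-HSA-CAAHR muscles and at 16.9, 17.6 and 20.8 CPM in AAV9-HSA-GFP muscles. The AAV9-HSA-CAAHR libraries lay within a narrow band, and replicate 46 was the highest of the controls. Across all tested genes 29.9% had groups that did not overlap. The means were 15.9 ± 0.27 and 18.4 ± 2.05 CPM, and the log2 fold change of -0.21 ± 0.11 (SE, 95% interval -0.45 to 0.03) did not pass the test (adjusted p = 0.264). Without replicate 46 it was -0.12. The size of the difference was ordinary for these libraries, since the median absolute log2 fold change of all tested genes was 0.21. Kyat1 spans 30185124 to 30205847 on the minus strand of chromosome 2.

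Kyat3, which also acts on glutamine and is located on chromosome 3 (142701051 to 142746870, plus strand), had 6.45, 5.16 and 6.64 CPM in AAV9-HSA-CAAHR muscles. The AAV9-HSA-GFP muscles had 5.84, 7.33 and 7.01 CPM, so the groups overlapped and replicate 34 was again the lowest. Its log2 fold change was -0.14 ± 0.15 (SE, 95% interval -0.48 to 0.19, adjusted p = 0.624). Aadat, the aminotransferase of 2-aminoadipate and kynurenine on chromosome 8 (60505932 to 60545677, plus strand), had 0 reads in every library. A count of 0 allows up to 3 reads, that is 0.0492 to 0.0721 CPM per library, with counting error only.

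The composition of the aminotransferase transcripts overlapped between the groups. Per kilobase of merged exons, Got2 made up 93.4, 91.8 and 93.8% of the summed aminotransferase level in AAV9-HSA-CAAHR muscles and 91.6, 92.4 and 92.3% in AAV9-HSA-GFP muscles. The shares overlapped, with replicate 34 inside the range of the controls and replicates 31 and 36 above it. The level of Kyat1 was 8.05, 10.2 and 7.68 times that of Kyat3 in the first group and 9.43, 7.82 and 9.65 times in the second, which also overlapped. The size of these ratios depends on the length used. Merged exons of Kyat3 cover 9518 bases and its longest transcript 4206. By longest transcript, Kyat1 had means of 7.74 and 8.95 CPM per kilobase in the first and second group, against 1.45 and 1.6 for Kyat3. Shares and ratios of transcripts do not give enzyme activity.

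At the entry of the route, Afmid was present at a low level in all 6 muscles. It had 1.64, 2.12 and 2.36 CPM in AAV9-HSA-CAAHR muscles and 2.16, 1.71 and 2.28 CPM in AAV9-HSA-GFP muscles. The ranges overlapped. The log2 fold change was -0.01 ± 0.22 (SE, 95% interval -0.49 to 0.48, adjusted p = 0.992). Afmid lies on chromosome 11 (117825924 to 117839908, plus strand). Of its exon bases 44.2% are shared with the read-through gene model Gm20708 on the same strand, which had at most 0.0984 CPM, and 83 bases are shared with Tk1 on the opposite strand. Reads in shared stretches may have been left uncounted, and their part in the Afmid level was not tested.

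Ido1, the interferon-induced enzyme of immune and endothelial cells, was barely detected. It had 11, 4 and 4 reads in AAV9-HSA-CAAHR muscles and 3, 9 and 18 reads in AAV9-HSA-GFP muscles, or 0.218, 0.07 and 0.0656 CPM against 0.0622, 0.216 and 0.34 CPM. Replicate 31 was as high as control replicate 43, and control replicate 42 was the lowest of all. The log2 fold change of -0.85 ± 0.70 (SE) had an interval from -2.40 to 0.71 (adjusted p = 0.512) and ranged from -1.59 without replicate 31 to -0.24 without replicate 46. The controls alone spread from 3 to 18 reads. Tdo2, the enzyme of the liver, had 2, 13 and 9 reads against 9, 9 and 7 reads, with overlapping groups. Ido1 lies on chromosome 8 (24584136 to 24597009, minus strand) and Tdo2 on chromosome 3 (81957090 to 81976202, minus strand).

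Immune and interferon markers moved with the groups and are given beside Ido1 and the oxidative branch, which immune cells are known to express. The paper measured selected immune genes by quantitative PCR and found them not lower in CAAHR-treated mice than in uninfected mice. It reads the difference as a local immune response to AAV-GFP, and so lower values here are relative to that control. The interferon response list, of which 3 of 5 tested genes fell and 5 had an unadjusted p under 0.05, summed to 15.1 to 19.3 CPM in AAV9-HSA-CAAHR muscles and to 29.2 to 52.9 CPM in AAV9-HSA-GFP muscles. Its member Ifng had 0 reads in all AAV9-HSA-CAAHR muscles and only 2, 6 and 1 reads in AAV9-HSA-GFP muscles, and it was not tested. Of 8 tested macrophage and dendritic cell genes 1 fell and 6 had an unadjusted p under 0.05, and the list summed to 15.3 to 27.3 against 35.7 to 75.2 CPM. Of 5 B cell genes 2 fell and 5 had an unadjusted p under 0.05, with sums of 0.831 to 1.2 against 5.01 to 35.7 CPM, and 0 of 1 tested T and NK cell genes passed, with sums of 1 to 1.52 against 1.99 to 6.83 CPM. Control replicate 43 had the highest sum of all 6 libraries in each of these lists. Over all tested genes 7.6% were called and 23.9% had an unadjusted p under 0.05 in edgeR. Endothelial genes did not separate the groups, at 144 to 209 against 140 to 181 CPM. Because muscle tissue and not separated cells was sequenced, fewer cells of a type and less RNA per cell cannot be told apart. The part of these markers in the levels of Ido1, Kmo, Kynu and Haao was not tested.

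**Figure D2:**
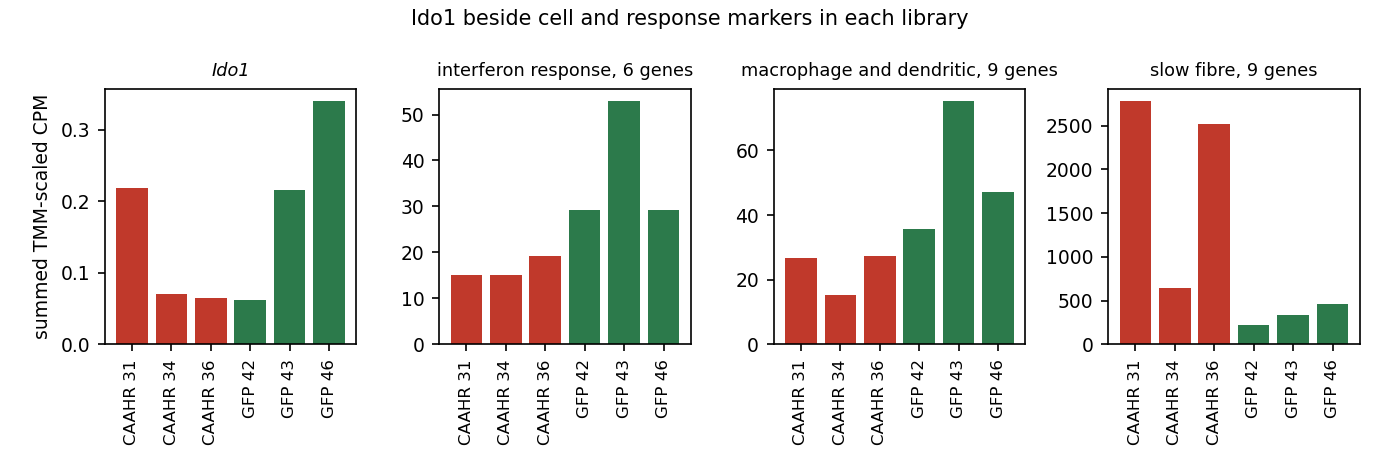
Ido1 and the summed markers of interferon response, macrophages and dendritic cells, and slow fibres in each library, in TMM-scaled CPM on linear axes; red bars are AAV9-HSA-CAAHR and green bars AAV9-HSA-GFP muscles. The interferon and macrophage sums are below the controls in all AAV9-HSA-CAAHR muscles, Ido1 overlaps between groups, and replicate 34 has a slow fibre sum of 649 CPM.

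The 3 enzymes of the oxidative branch were at the edge of detection. Kmo, the mitochondrial kynurenine 3-monooxygenase on chromosome 1 (175620381 to 175662116, plus strand), had 5, 9 and 10 reads in AAV9-HSA-CAAHR muscles and 8, 10 and 10 in AAV9-HSA-GFP muscles. After scaling these were 0.0989 to 0.164 against 0.166 to 0.24 CPM, which did not overlap but lay next to each other. The ratio of summed counts, corrected for library size, was 0.726 with a counting interval from 0.403 to 1.30. Kynu, the kynureninase gene on chromosome 2 (43555329 to 43682715, plus strand), had 8 reads, all in control replicate 43, and 0 in the other 5 muscles. Replicate 43 was also the library with the highest immune sums.

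Haao, the dioxygenase that yields the precursor of quinolinic acid, lies on chromosome 17 (83831156 to 83847963, minus strand). It had 1, 1 and 5 reads against 5, 5 and 7 reads, or 0.0175 to 0.082 against 0.104 to 0.132 CPM, so the AAV9-HSA-CAAHR muscles were below every control. The total was 7 reads against 17, a ratio of 0.349 with a counting interval from 0.122 to 0.885 that leaves out the spread between mice. Haao entered a test only when the filter on low counts was dropped, and it was not called there (adjusted p = 0.412). The share of tested genes without overlap given above was 29.9%. The summed level of the branch was 0.119 to 0.246 CPM in AAV9-HSA-CAAHR muscles and 0.269 to 0.553 CPM in AAV9-HSA-GFP muscles. These sums rest on few reads and were not tested. The highest, in replicate 43, includes 0.192 CPM of Kynu.

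Ordered by level per kilobase of merged exons, the 10 genes stood in nearly the same sequence in both groups. Got2 came first at 82.0 ± 11.9 CPM per kilobase in AAV9-HSA-CAAHR and 82.0 ± 11.8 in AAV9-HSA-GFP muscles (SD, n = 3), at percentile 97.6 of the tested genes. Kyat1 followed at 5.45 ± 0.09 and 6.30 ± 0.70 CPM per kilobase, at percentile 74.3. Kyat3, at 0.639 ± 0.085 and 0.707 ± 0.082, and Afmid, at 0.577 ± 0.104 and 0.579 ± 0.086 CPM per kilobase, were neighbours whose libraries overlapped. This closeness depended on the length used. By longest annotated transcript, Kyat3 had means of 1.45 in AAV9-HSA-CAAHR and 1.6 in AAV9-HSA-GFP muscles, and Afmid 0.877 and 0.88. Ido1 was lower than Afmid in every library, at 0.0645 ± 0.0474 and 0.113 ± 0.076 CPM per kilobase, and overlapped with Tdo2, which overlapped with Kmo. Haao lay below Kmo, and Kynu and Aadat came last. The step from Got2 to Kyat1 was 12.1 to 17.0 times within single libraries, and in no library did the order of Got2, Kyat1 and Kyat3 change.

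Related genes beyond the 10 enzymes were looked up in lists. The lists covered other tryptophan and kynurenine genes, amino acid transport, transcription regulators and the malate-aspartate shuttle. They also covered lysine breakdown, other aminotransferases and the supply of pyridoxal phosphate, the aminotransferase cofactor. In all they held 45 distinct genes, of which 44 were found and 34 tested. Of these, 3 rose and 2 fell, or 14.7% against 7.6% of all tested genes, and their median log2 fold change was 0.08 against 0.01. The lists were chosen with earlier results of these data known, so the higher share cannot be read as enrichment. In the list of other tryptophan and kynurenine genes 2 of 5 tested genes rose, and both belong to serotonin synthesis.

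**Figure D3:**
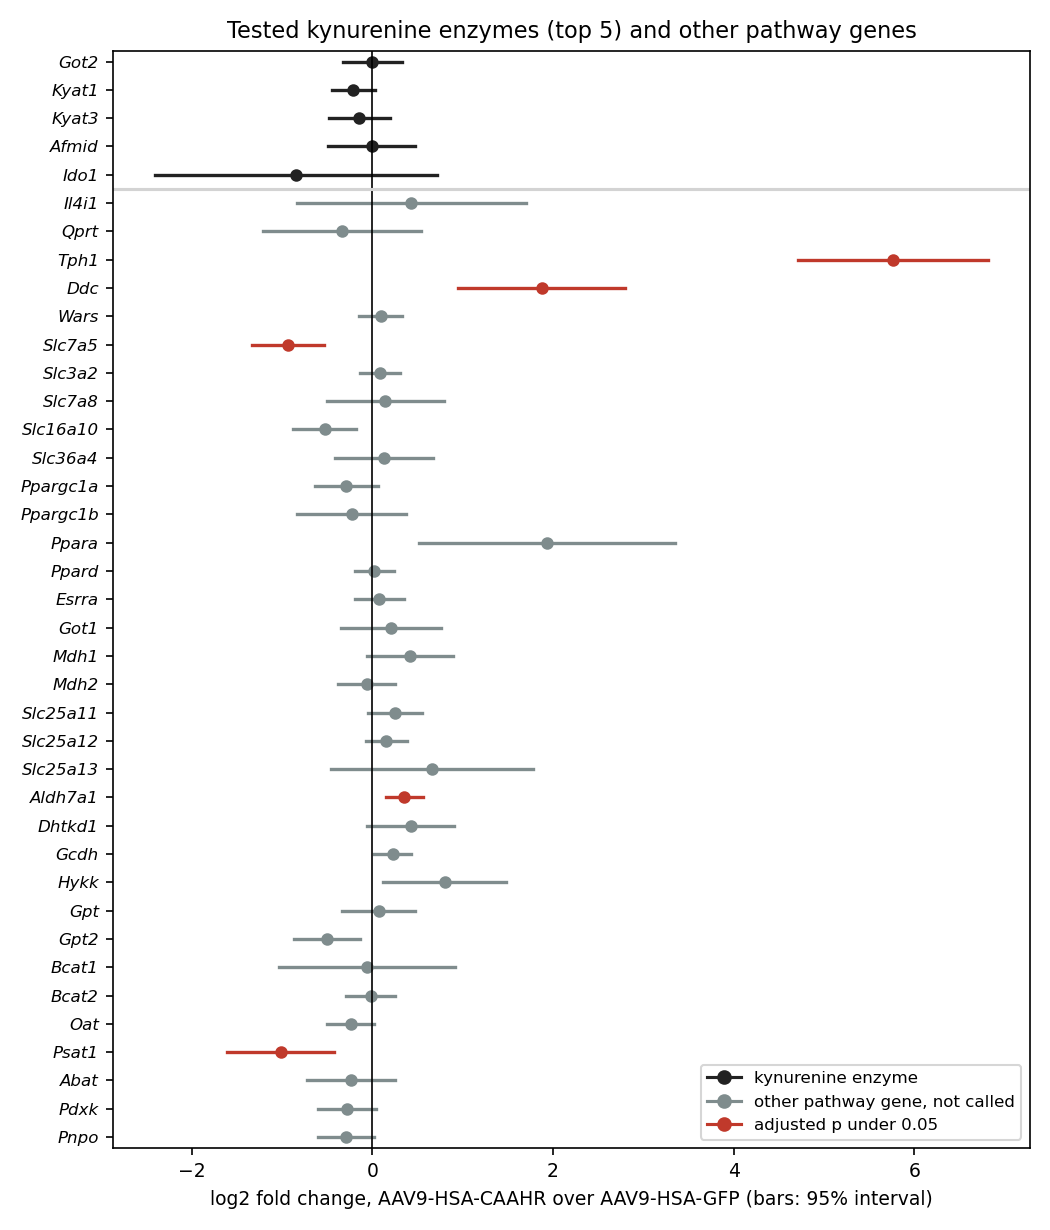
Log2 fold change of the 5 tested kynurenine enzymes (black) and of the 34 tested genes of the other lists, AAV9-HSA-CAAHR over AAV9-HSA-GFP muscles, with 95% intervals; red marks an adjusted p under 0.05. The intervals of all 5 kynurenine enzymes include 0, and Tph1 lies apart at 5.76.

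Tph1, tryptophan hydroxylase of peripheral tissues and the first step towards serotonin, had 5113, 11074 and 8754 reads in AAV9-HSA-CAAHR muscles and 95, 174 and 106 reads in AAV9-HSA-GFP muscles. Its level rose from 2.72 ± 1.27 to 146 ± 46.4 CPM (SD, n = 3). No library came near the other group, and within the AAV9-HSA-CAAHR muscles replicate 34 was the highest, as it was for Ahr and Cyp1a1. The change was 54.3-fold with an interval from 26.2 to 113 (log2 fold change 5.76 ± 0.43 SE, adjusted p = 0.00159).

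Ddc, the aromatic amino acid decarboxylase of the next step, also rose, but at a far lower level. It had 30, 59 and 40 reads against 7, 13 and 9 reads, or 0.593, 1.03 and 0.656 CPM against 0.145, 0.312 and 0.17 CPM, and the groups did not overlap. The change was 3.67-fold (interval 1.93 to 6.97, log2 fold change 1.88 ± 0.41 SE, adjusted p = 0.0257). It missed the threshold without replicate 31, 34, 36, 42 or 46, with adjusted p values from 0.0512 to 0.102. The other tested genes of the list, Qprt of NAD synthesis, the amino acid oxidase Il4i1 and the tryptophanyl-tRNA synthetase Wars, were not called, with log2 fold changes of -0.33 ± 0.39, 0.43 ± 0.57 and 0.09 ± 0.11 (SE). Most exon bases of Il4i1, 83.9%, overlap Tbc1d17 on the opposite strand, and whether counting used the strand is not given in the sources used here. Ido2, Acmsd and Tph2 had too few reads to test. Of the 42 reads of Tph2 in the controls, 39 were in replicate 42.

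**Figure D4:**
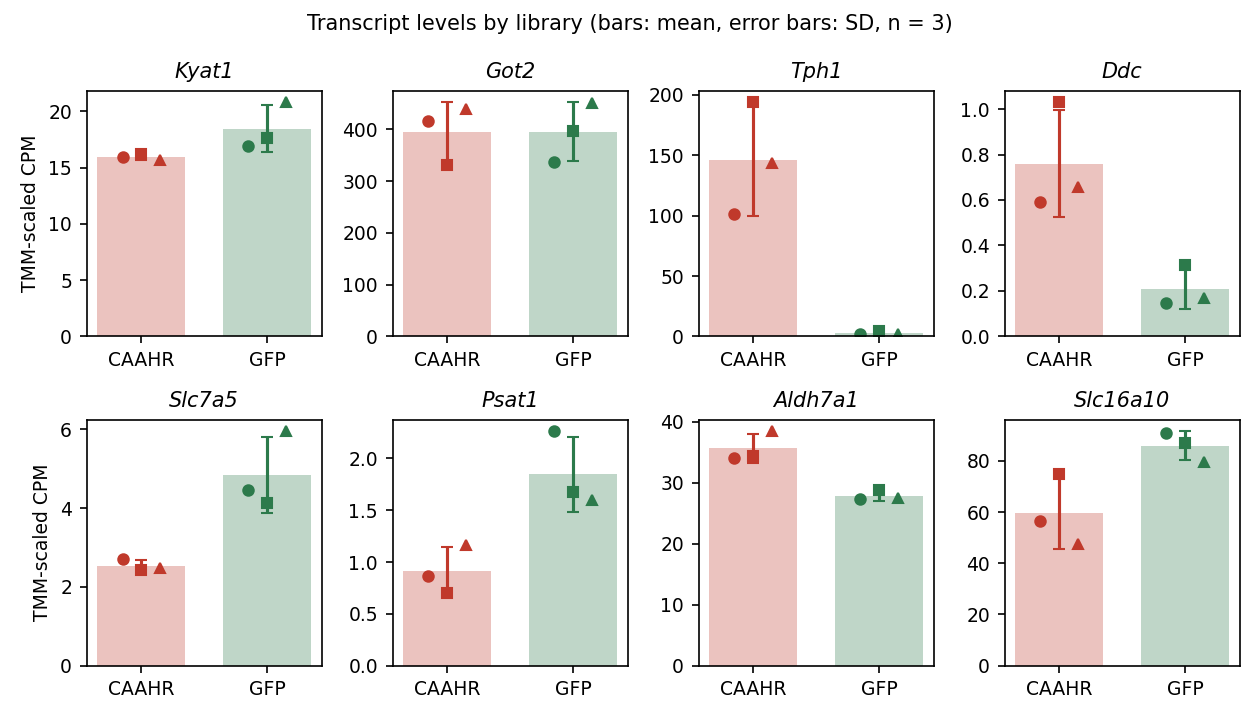
Levels of Kyat1, Got2, the 5 pathway genes that passed the test and Slc16a10, in TMM-scaled CPM on linear axes from 0; bars are means of 3 muscles, error bars SD and marks single muscles. Kyat1 and Got2 differ little beside Tph1, where the AAV9-HSA-CAAHR muscles reach 101 to 194 CPM and the controls 1.97 to 4.18 CPM.

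Of 5 tested genes of amino acid transport, 1 fell and 2 had an unadjusted p under 0.05, beside 7.6% and 23.9% of all tested genes. The receptor gene Gpr35 and the transporter genes Slc22a6 and Slc22a8 had too few reads to test. Slc7a5, the LAT1 subunit that imports tryptophan and kynurenine, was at 2.71, 2.42 and 2.49 CPM in AAV9-HSA-CAAHR muscles and at 4.46, 4.13 and 5.95 CPM in AAV9-HSA-GFP muscles. Every control was above every AAV9-HSA-CAAHR muscle. The log2 fold change was -0.93 ± 0.18 (SE, adjusted p = 0.0144), and the adjusted p was 0.0645 without replicate 36 and 0.0562 without replicate 46. Its partner Slc3a2 had a log2 fold change of 0.09 ± 0.10 (adjusted p = 0.648). Slc16a10, the aromatic amino acid transporter TAT1 and the gene with the highest CPM of this list, had 56.5, 74.8 and 47.4 CPM against 90.8, 87 and 79.7 CPM. Its groups did not overlap, but its log2 fold change of -0.53 ± 0.16 (SE) did not pass the test (adjusted p = 0.0732). Slc3a2 and Slc16a10 were singled out after their values were seen.

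The co-activator PGC-1α and PPAR receptors are known to raise kynurenine aminotransferases in exercised muscle. A list of regulators held both PGC-1 co-activators (Ppargc1a and Ppargc1b), Ppara, Ppard and Esrra, the gene of oestrogen-related receptor alpha, which works with PGC-1α. Of these 5 genes 0 passed the test, with 1 at an unadjusted p under 0.05 in edgeR. Esrra had the highest CPM, at 121 ± 9.66 and 114 ± 16.7 CPM, with a log2 fold change of 0.08 ± 0.12 (SE, adjusted p = 0.755). The gene of PGC-1α itself, Ppargc1a, had 27.7, 19.7 and 20.2 CPM against 23.3, 31 and 28.1 CPM, which overlapped (log2 fold change -0.29 ± 0.16 SE, adjusted p = 0.304). Ppara had 12.7, 3.41 and 13.4 CPM in AAV9-HSA-CAAHR muscles and 1.7, 2.98 and 3.02 CPM in AAV9-HSA-GFP muscles. Replicate 34 was the nearest of its group to the controls here, as it was for slow fibre genes, and the log2 fold change of 1.94 ± 0.57 (SE) did not pass (adjusted p = 0.109). Ppargc1a and Ppara were picked after their values were seen.

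The shuttle in which GOT2 works showed no call either. Of the 6 genes of the malate-aspartate shuttle, 0 passed and 0 had an unadjusted p under 0.05 in edgeR. Mdh2, the mitochondrial malate dehydrogenase, had the highest CPM at 595 ± 68.1 and 621 ± 95.8 CPM (log2 fold change -0.06 ± 0.14 SE, adjusted p = 0.839). Both tested genes that supply pyridoxal phosphate, the cofactor of the aminotransferases, were not called and had 0 unadjusted p values under 0.05; Pdxk, with the higher CPM, was at 9.59 ± 1.17 and 11.6 ± 1.75 CPM (log2 fold change -0.28 ± 0.14 SE, adjusted p = 0.277).

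Lysine breakdown shares AADAT with the kynurenine route, and 1 of its 4 tested genes rose. In edgeR 3 of the 4 had an unadjusted p under 0.05. Over all tested genes 7.6% were called and 23.9% had such an unadjusted p. All 4 fitted values were above 0 with a median log2 fold change of 0.39. Aldh7a1, an aldehyde dehydrogenase, was at 34.1, 34.4 and 38.4 CPM against 27.3, 28.8 and 27.5 CPM, without overlap. This was a 1.28-fold change (log2 fold change 0.36 ± 0.09 SE, adjusted p = 0.0431). It missed the threshold with upper-quartile scaling (adjusted p = 0.0824) and without replicate 31, 36, 42, 43 or 46 (adjusted p from 0.0716 to 0.163).

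Among 8 tested aminotransferases outside the 4 above, 1 fell and 2 had an unadjusted p under 0.05, beside 7.6% and 23.9% of all tested genes. Psat1, phosphoserine aminotransferase of serine synthesis, was at 0.87, 0.7 and 1.16 CPM against 2.26, 1.68 and 1.6 CPM, without overlap (log2 fold change -1.02 ± 0.27 SE, adjusted p = 0.0487). Without any one of the 6 muscles it missed the threshold, with adjusted p from 0.0568 to 0.156, and it also missed it with scaling by library size only (0.0635) and in limma-voom (0.0554). Of the 5 pathway genes called, only Tph1 passed in every alternative tried.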

How the data were processed

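RNA from 6 gastrocnemius muscles was poly(A)-selected and sequenced in paired reads by the authors. Adapters were removed in Trimmomatic 0.36 and STAR 2.5.2b placed the reads on GRCm38, after which uniquely assigned exon reads were tallied per gene with featureCounts. The deposited values are these raw counts, with no scaling. Strandedness is not given in the sources used here.

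Counts were tested with edgeR 4.0.16 in R 4.3.3 (quasi-likelihood F test with robust estimation, filterByExpr, TMM scaling, Benjamini-Hochberg adjustment over 15847 genes). A gene was called at an adjusted p under 0.05. DESeq2 1.42.0 and limma-voom 3.58.1 were alternatives. The routine was tested on simulated data, where it called 65.3% of 2-fold and 92.3% of 4-fold changes. Of the 49315 genes, 99.5% were in the GENCODE vM21 annotation, which gave exon lengths and coordinates. Counting ratios have 95% intervals that cover counting error only, and the floor is 3 counts.

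Replicates are separate muscles with no shared numbers. Named were all 10 members, called genes of the other lists, the most abundant gene of a list without calls, marker sums, and Ahr and Cyp1a1; other names were chosen after values were seen. The members and lists were chosen with earlier results of these data known. Itgam, listed under more than one identifier, and Pdxp, not matched, were not used.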

Additional observations from a re-analysis of the deposited data

How the results depend on the processing

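None of the 5 tested kynurenine enzymes was called under any alternative tried (69 values in all), nor was any of the 4 others with reads when the filter was dropped, the lowest adjusted p being 0.092 for Kynu, whose 8 reads came from replicate 43. For Ido1 the DESeq2 value had no adjusted p. The log2 fold change ranged from -0.28 to -0.12 for Kyat1, from -0.23 to -0.05 for Kyat3, from -1.59 to -0.24 for Ido1, from -0.10 to 0.10 for Got2 and from -0.13 to 0.12 for Afmid. The latter 2 changed sign, being negative in 8 and positive in 6 of 14 alternatives. Kyat1 was at an unadjusted p under 0.05 only with upper-quartile scaling and without replicate 42. The 5 pathway genes called became 8 with no filter on low counts and 8 in DESeq2, and between 1 (without replicate 36 or 46) and 7 (without replicate 34) when single muscles were left out; without replicate 31 or 42 there were 2, and without replicate 43 there were 3. Over all genes 1205 were called (481 higher, 724 lower), 2470 with no filter, 1923 in DESeq2, and 530 to 1727 when single muscles were left out. The split was 358 higher and 990 lower with upper-quartile scaling, and 876 higher and 600 lower by library size only. The order of levels kept 16 to 20 of its 20 places when single muscles were left out, and 18 with the longest transcript as length; the exchanges were between neighbours. The cause of these differences was not tested. No paired analysis was possible because no replicate number occurs in both groups. Ido1, Tdo2, Kmo, Kynu and Haao had at most 18 reads in any library, and Ido1 and Kynu also varied between mice of a group; which of these limits their comparison was not tested.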

Other observations

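Because Tph1 rose by far the most among the pathway genes, 13 further genes of serotonin and melatonin handling and of the hydroxylase cofactor tetrahydrobiopterin were looked up after the values of Tph1 had been seen, and are given as values with no test. Of these 10 had enough reads, and their log2 fold changes lay between -0.18 and 0.39. Maoa and Maob, the monoamine oxidases that degrade serotonin, had log2 fold changes of -0.11 ± 0.15 and 0.32 ± 0.11 (SE), and the vesicular transporter Slc18a2 had 0.02 ± 0.20. Gch1, the first enzyme of cofactor synthesis, was at 2.04 ± 0.77 CPM in AAV9-HSA-CAAHR and 1.56 ± 0.20 CPM in AAV9-HSA-GFP muscles (SD, n = 3), a log2 fold change of 0.39 ± 0.29 (SE). Spr and Qdpr, which complete and recycle the cofactor, had 0.12 ± 0.12 and 0.17 ± 0.11. The serotonin transporter gene Slc6a4 and the melatonin genes Aanat and Asmt had 33, 8 and 1 reads over all 6 libraries.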
